A study of Gallus gallus with 6 samples.

Results

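Bone morphogenetic proteins (BMPs), TGF-betas and activins, their antagonists, receptors, SMAD proteins and direct targets were followed in growing feathers from the neck, wing and leg of adult chickens. The genes were chosen by name alone from 2 deposited tables of RNA-seq values, as every entry named for one of these families (BMP, GDF, TGFB, INHA, INHB, ACVR, BMPR and SMAD genes, the antagonists *NOG*, *CHRD*, *GREM1*, *FST* and relatives, and the targets *ID1* to *ID4*). This rule used no measured value, but earlier results of these data were known when it was chosen. The rule gave 50 genes, 18 among the 6534 entries of the first table and 47 among the 6534 genes of the second. A first-table entry for *BMPR2* and one for *SMAD2* carried an older symbol (*BRK-3* and *MADH2*), so that 17 genes had values in both tables, 30 in the second alone and 3 in the first alone (*BMP7*, *FSTL3* and *TGFB1*). One further entry merged *ACVR1B* with *ACVRL1* under a single value and was skipped. *SMAD4*, the partner of all signalling SMADs, is not analysed here.

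The ligands of this superfamily are secreted dimers that bring together type I and type II receptor kinases at the cell surface. The type I receptor then phosphorylates receptor SMADs, mainly SMAD1, SMAD5 and SMAD9 below BMP receptors and SMAD2 and SMAD3 below TGF-beta and activin receptors, and these carry the signal to the nucleus. In chicken skin, BMPs and their antagonist noggin are known to act on the spacing of feather buds and later on the branching of the feather into rachis and barbs.

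All libraries came from untreated, wild type adult birds labelled as strain domesticus, with feathers plucked while they grew, and the 3 regions have 2 labelled replicates each. The labels describe epithelium from 5 pooled feathers with the pulp removed, whereas the methods of the study name RNA of the whole follicle or of dissected dermal papilla and pulp. The first table holds replicate 1 of each region in whole numbers of unstated unit, and the second holds replicate 2 as FPKM (fragments mapped to a gene, corrected for its length and for library size). Where 3 values follow each other without a region, their order is neck, wing and leg. The column names of the second table give a different chicken number for each region, so a difference between regions and one between birds cannot be told apart there. Nothing says whether the replicates were separate RNA, so p-values measure only the spread between these libraries, which may be technical.

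The values summed to between 1780292 and 4195932 per library in the first table and between 701758 and 805460 FPKM in the second, and wing had the lowest sum in both. The 10 highest entries took 40.7% of the wing sum against 66.9% and 67.6% in neck and leg in the first table, and 11.6% against 27.3% and 31.5% in the second. The epithelial adhesion gene *CDH1* was present throughout, reading 147, 122 and 109 in the first table and 108, 125 and 95.0 FPKM in the second. *KRT5*, *KRT6A* and *KRT75* were listed at 0 in the second table, although *KRT5* had values of 307, 519 and 244 in the first, so a 0 in the second table may not mean absence. Most genes of a mesenchyme list were higher in wing and leg than in neck. The summed value of 8 of its 26 genes was 212, 703 and 405 in the first table, and that of 21 genes was 455, 2063 and 1046 FPKM in the second, where each of these 21 exceeded the change of the median gene both from neck to wing and from neck to leg. All 8 of the first table entered the test described next, and 7 of them rose in both of these comparisons. The exception, *VIM*, read 75, 62 and 69 in the first table and 133, 193 and 159 FPKM in the second. Of 19 blood and endothelium genes, 11 were listed in the second table and summed to 12.5, 94.3 and 31.2 FPKM with *HBZ* at 0, 10 of 13 leukocyte genes to 57.7, 160 and 153, 4 of 6 smooth muscle genes to 18.6, 39.2 and 28.6, and 12 of 22 epithelium genes to 4116, 5176 and 3659, against 3148, 2397 and 2451 for 14 of the 22 in the first table. From neck to wing, 8 of the 10 leukocyte and 2 of the 4 smooth muscle genes exceeded the change of the median gene. The same held for 4 of the 12 epithelium genes, and for 5 of the 14 in the first table. *KRT5*, *KRT6A* and *KRT75*, at 0 in the second table, could not exceed that change there. *KRT14* and *KRT15* alone gave 275, 972 and 281 and 119, 526 and 133 FPKM. *SFN* alone gave 1459, 736 and 977 in the first table. *CD74* alone gave 22.4, 96.4 and 88.0 FPKM and *ACTA2* alone 3.93, 26.7 and 12.5. *CD3D*, *CD3E*, *MYH11* and *MYLK* were lower in wing than in neck. Melanocyte genes summed to 284, 855 and 202 over 8 of 12 genes in the first table, with *MLANA* alone at 147, 575 and 104. In the second, 10 genes summed to 250, 575 and 215 FPKM, with *PMEL* at 0 in all 3 regions. From neck to wing, 7 of the 8 and 6 of the 10 exceeded the change of the median gene. *TYRP1* went the other way, with 13.7, 0.203 and 20.2 FPKM. In bulk RNA such as this, fewer cells of a type and less RNA per cell cannot be told apart.

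Regions were tested on the 2191 genes listed in both tables, with limma on log2(value + 1) and the table as a block, and a gene was called at an adjusted p-value (Benjamini-Hochberg over all 2191 genes) under 0.05. Each table holds 1 library per region, and the estimate of the spread was pooled over genes, so a gene's own disagreement between the tables had no weight. The median gene changed by 0.14 on the log2 scale from neck to wing, by -0.20 from neck to leg and by -0.32 from wing to leg. The medians of the 17 signalling genes were 0.13, -0.13 and -0.25. Over all entries of each table, the median change from neck to wing was -0.08 in the first and 0.29 in the second. Log2 changes below are on the log2(value + 1) scale with their standard error (SE), and understate the change of low genes. Further fits left out 1 of the 6 libraries at a time. For each comparison, 2 of these 6 fits dropped a library of the region not compared and left every log2 change as it was. A call that stood in those 2 fits was therefore no check on the libraries compared.

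**Figure D1:**
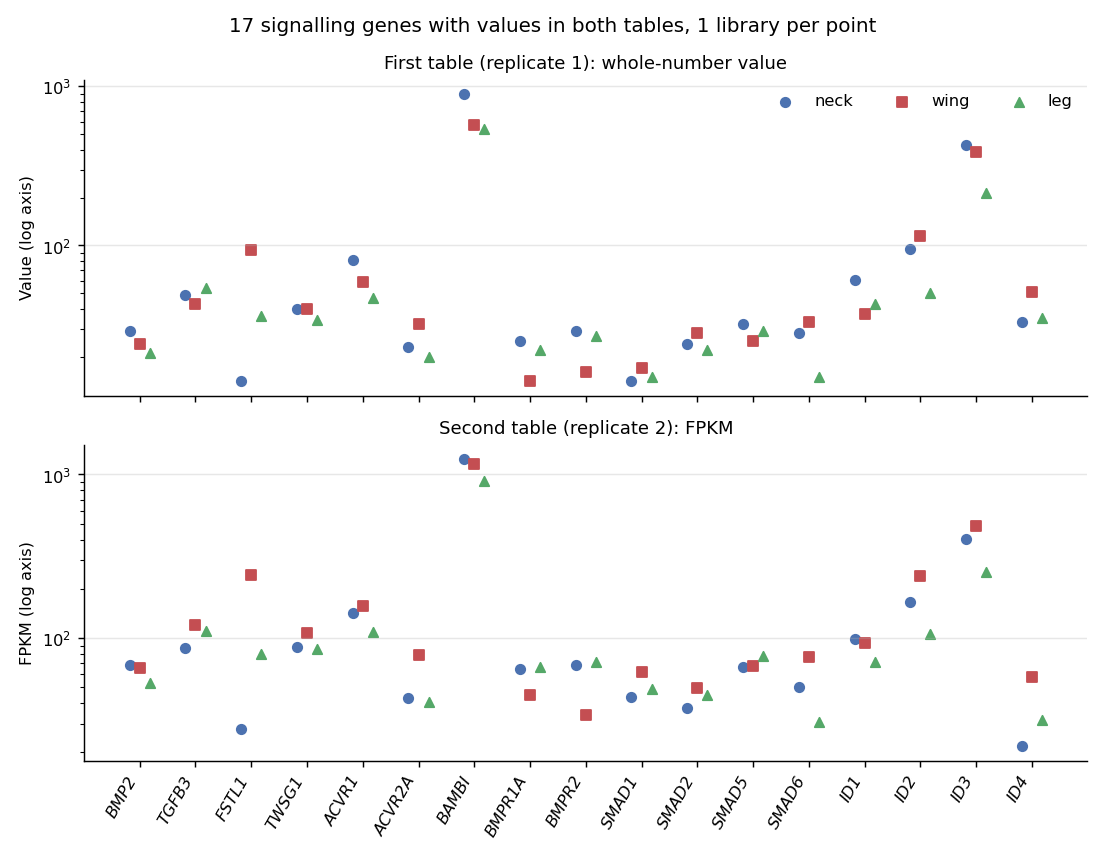
Values of the 17 signalling genes listed in both tables, by region, with 1 library per point and log axes (upper panel, whole-number value of the first table, lower panel, FPKM of the second). *FSTL1* was highest in wing and lowest in neck in both panels, *BMPR1A* and *BMPR2* were lowest in wing, and *SMAD6*, *ID2* and *ID3* were lowest in leg.

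Among the BMP ligands with an FPKM, *BMP2* was the most abundant in every region. *BMP7*, which has none, read higher than *BMP2* in all 3 regions of the first table, though only by 25 against 24 in wing. The unit of that table is unstated, so levels of different genes may not be comparable in it. *BMP2*, a BMP expressed at many epithelial signalling centres, lies on chromosome 3 from 15109004 to 15137888. The loci are those of the first table, whose assembly it does not name. The labels give galGal4, but 46 of its entries lie on chromosome 33, and whether both are one build was not tested. *BMP2* read 29 (neck), 24 (wing) and 21 (leg) in the first table and 68.4, 65.9 and 53.3 FPKM in the second. It was thus lowest in leg in both tables, but its change from neck to leg, -0.40 (SE 0.17), missed the threshold (limma, adjusted p = 0.106), as did its other differences.

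*BMP4* and *BMP5*, both measured in the second table alone, differed far more between the regions than *BMP2*. *BMP4*, known from the feather bud mesenchyme, stood at 4.29 (neck), 25.6 (wing) and 3.53 (leg) FPKM. *BMP5*, known in the mouse for its part in skeletal and ear development, had 9.90, 37.7 and 3.14. Wing was therefore 5.98-fold above neck and 7.26-fold above leg for *BMP4*, and 3.81-fold above neck and 12.0-fold above leg for *BMP5*, with 1 library per region and no test. The ratio of *BMP2* to *BMP4* in FPKM was 16.0 in neck and 15.1 in leg, against 2.57 in wing. *BMP7*, a BMP of epithelia and kidney, was listed in the first table alone, on chromosome 20 from 11885200 to 11933819, with values of 44, 25 and 32, so it had its lowest value in wing.

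*GDF3*, a GDF known from the early embryo, stood at 2.71 (neck), 6.27 (wing) and 1.99 (leg) FPKM. Other BMP and GDF ligands were at or near the bottom of the second table. *BMP3*, which opposes other BMPs, had 0.846, 0.964 and 0.332, and *GDF9* and *BMP15*, known from the oocyte, stayed under 1 in all 3 regions, with *GDF9* between 0.181 and 0.545 and *BMP15* between 0 and 0.286. *GDF2*, which encodes the circulating ligand BMP9, had 0.138 in neck, 0.113 in wing and 1.19 in leg. *GDF5*, a joint-forming ligand, had 0.0665 in wing and was otherwise at 0, and *BMP10*, known from the heart, was at 0 in every region. The 10 BMP and GDF ligands of the second table together summed to 86.5 FPKM in neck, 138 in wing and 63.7 in leg.

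Of the TGF-beta ligands, *TGFB3* alone entered the test, and none of its differences was called. *TGFB3*, on chromosome 5 from 38503285 to 38517228, read 49, 43 and 54 from neck to wing to leg in the first table and 87.4, 120 and 110 FPKM in the second. The tables thus placed wing lowest and highest respectively, and its log2 changes from neck to wing, neck to leg and wing to leg were 0.13, 0.23 and 0.10 (SE 0.18), with adjusted p-values of 0.638, 0.414 and 0.669 in limma. *TGFB2*, in the second table alone and not tested, stood at 16.3, 16.0 and 13.8 FPKM. *TGFB1*, on the unplaced scaffold AADN04001188.1 from 24390 to 29927, read 17, 29 and 14 in the first table alone and was not tested, so its wing value was 2.07-fold above leg with no replicate check.

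The activin subunit *INHBA* was low in neck, with 2.07 FPKM against 14.0 in wing and 8.34 in leg, which is 6.74-fold and 4.02-fold above neck. *INHBB*, the other activin beta subunit, varied less, at 12.3, 14.2 and 8.52 FPKM. *INHA*, whose product turns a beta subunit into inhibin, was listed at 0, 0.356 and 0.110. The 2 beta subunits were therefore near 1 to 1 in wing and leg, with *INHBA* to *INHBB* ratios of 0.986 and 0.978, but at 0.169 in neck. These activin and inhibin genes were listed in the second table alone, with 1 library per region and no test.

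Among the secreted antagonists and modulators, *FSTL1* had the largest differences of all 17 genes in both comparisons with neck. *FSTL1*, a follistatin-like glycoprotein that binds BMPs and is made by many mesenchymal cells, lies on chromosome 1 from 79864142 to 79907705. It read 14 (neck), 94 (wing) and 36 (leg) in the first table and 27.7, 242 and 79.7 FPKM in the second, so both tables placed wing above leg and leg above neck. It rose by 2.87 (SE 0.17) in wing against neck (limma, adjusted p = 8.4e-57) and by 1.40 (SE 0.17) in leg against neck (adjusted p = 2.3e-13), and fell by 1.47 (SE 0.17) in leg against wing (adjusted p = 1.4e-15). With any 1 library left out the 3 changes stayed between 2.71 and 3.03, 1.25 and 1.55, and -1.64 and -1.31. The wing calls stood each time, while the leg against neck call stood in 4 of 6 such fits, the adjusted p reaching 0.0961.

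The summed mesenchyme genes had the same order of regions, and for example the collagen gene *COL1A2* gave 9, 77 and 32 in the first table against 13.3, 158 and 39.6 FPKM in the second. Among the signalling genes of the second table it held also, among others, for *GREM1*, *LTBP1*, *TGFBI*, *TGFBR2* and *INHBA*. It held as well for *ID4*, *SMAD1*, *SMAD2*, *TGFB3*, *TGFBR1*, *CHRD*, *FST* and *ACVR2B*, and for the epithelial keratin genes *KRT14* and *KRT15*. Wing was highest, whatever the order of neck and leg, in 73.1% of all genes not at 0 throughout that table. The share of all genes with the full order was not counted, so whether it marks mesenchyme genes was not tested. *GREM1*, a BMP antagonist of limb bud and skin mesenchyme, stood at 0.677 (neck), 10.9 (wing) and 1.40 (leg) FPKM, and *LTBP1*, which tethers latent TGF-beta to the matrix, had 6.38, 31.6 and 14.5. *TGFBI*, a matrix protein induced by TGF-beta, had 1.21, 13.0 and 2.02. The part of mesenchyme, blood or leukocyte content in these differences was not tested.

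For follistatin and noggin, leg did not stand clear above neck. *FST*, whose product binds activin and some BMPs, had 9.93 FPKM (neck), 26.0 (wing) and 10.2 (leg), so neck and leg were alike within 1.03-fold and wing stood 2.62-fold above neck. *NOG*, the noggin gene, was low, with 0.780, 0.798 and 0.0977. *CHRD*, the chordin gene, had 2.35, 4.19 and 3.50, and *CHRDL1*, a chordin-like antagonist, had 1.30, 2.36 and 0.0563, so that leg was lowest for *NOG* and *CHRDL1* but not for *CHRD*. *FSTL4*, a follistatin relative, stayed between 0.480 and 1.02.

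A pair of modulators ran the other way, with wing lowest. *BMPER*, which binds BMPs and can act for or against them, had 14.7 FPKM in neck, 7.46 in wing and 15.8 in leg. *FSTL3*, a follistatin-like inhibitor of activin, was listed in the first table alone, on chromosome 28 from 2757006 to 2770423, with values of 80, 16 and 62, so that wing was again the lowest. *TWSG1*, a chordin-binding modulator on chromosome 2 from 98791885 to 98810302, gave 40, 40 and 34 in the first table against 87.7, 107 and 85.6 FPKM in the second. None of its differences was called, the log2 changes lying between -0.27 and 0.14 (SE 0.18).

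**Figure D2:**
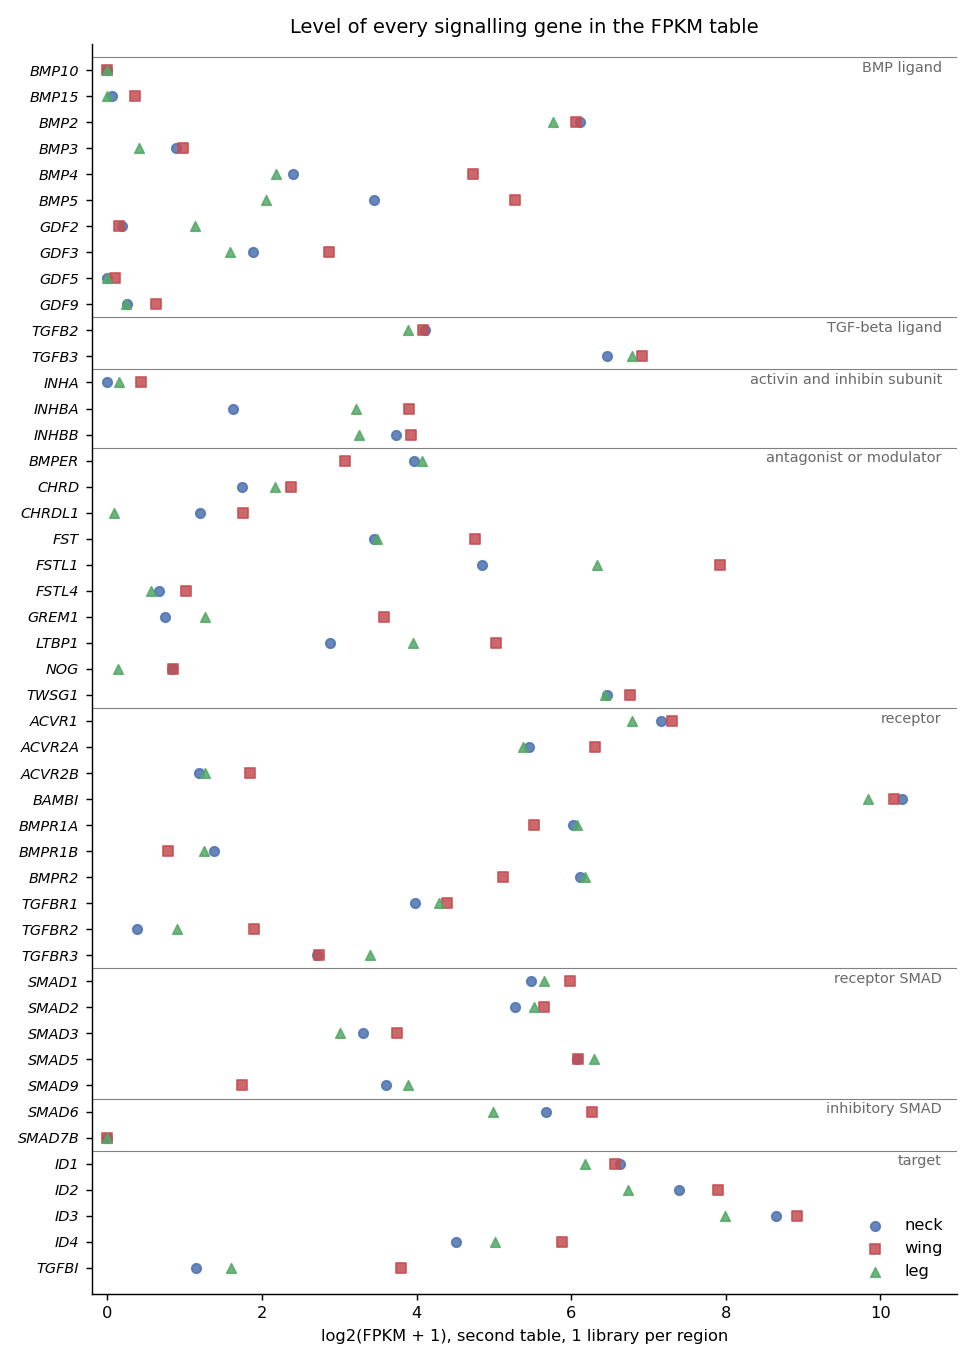
Level of the 47 signalling genes of the second table in neck, wing and leg on the log2(FPKM + 1) scale, grouped by role, with 1 library per point. *BAMBI* and *ID3* were the most abundant in every region, the wing values of *BMP4*, *BMP5*, *FSTL1*, *GREM1* and *TGFBI* stood to the right of the others, and *SMAD9* stood to the left in wing.

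Among the receptors, the BMPR genes were lowest in wing and the activin receptor gene *ACVR2A* was highest there. *BMPR1A*, a BMP type I receptor on chromosome 6 from 2495083 to 2577875, read 25, 14 and 22 from neck to wing to leg in the first table and 64.3, 45.0 and 66.7 FPKM in the second. *BMPR2*, the BMP type II receptor on chromosome 7 from 11870459 to 11976215, gave 29, 16 and 27 in the first table against 68.3, 33.7 and 71.3 FPKM in the second. For both genes wing lay below neck and leg in each table, while neck and leg lay close together. *BMPR1A* fell by 0.65 (SE 0.17) and *BMPR2* by 0.91 (SE 0.17) in wing against neck (limma, adjusted p = 0.00124 and 2.1e-06). They rose by 0.59 and 0.89 in leg against wing (adjusted p = 0.00231 and 2.2e-06), and relative to the median gene of that comparison by 0.91 and 1.21. *BMPR1B*, the other BMP type I receptor gene, was scarce and also lowest in wing in the second table, with 1.59, 0.727 and 1.38 FPKM. With 1 library left out, the wing against neck call stood in 1 of 6 fits for *BMPR1A* (adjusted p up to 0.150) and in 5 of 6 for *BMPR2* (up to 0.0745), and the leg against wing calls in 3 and 4 of 6.

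*ACVR2A*, an activin type II receptor that also accepts BMPs, lies on chromosome 7 from 34686873 to 34744566. It read 23, 32 and 20 in the first table and 42.8, 78.4 and 40.5 FPKM in the second. Wing was highest in both tables, with a rise of 0.66 (SE 0.17) in wing against neck (limma, adjusted p = 0.000995) and a fall of 0.80 in leg against wing (adjusted p = 2.7e-05). With 1 library left out, the first call stood in 1 of 6 fits (adjusted p up to 0.139) and the second in 4 of 6 (up to 0.199). Its relative *ACVR2B* had 1.27, 2.59 and 1.39 FPKM, also highest in wing but at a low level. The ratio of *ACVR2A* to *BMPR2* in FPKM was 2.33 in wing, against 0.627 in neck and 0.567 in leg, so the more abundant of these type II receptor genes was *ACVR2A* in wing and *BMPR2* in the other regions.

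*ACVR1*, a BMP type I receptor also called ALK2, had the highest FPKM of the kinase receptor genes. It lies on chromosome 7 from 36448666 to 36740750, with values of 81, 59 and 47 in neck, wing and leg in the first table and 142, 157 and 109 FPKM in the second. Leg was lowest in both, and *ACVR1* fell by 0.57 (SE 0.18) in leg against neck and by 0.42 in leg against wing (limma, adjusted p = 0.0191 and 0.0452). Relative to the median gene the second fall was 0.10, and with each library centred on its median it was -0.05 and was not called. Of the 6 fits with 1 library left out, the leg against neck call stood only in the 2 that dropped a wing library. The leg against wing call stood in 3 of 6.

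*BAMBI*, a decoy receptor without a kinase that blocks BMP, TGF-beta and activin signals, was the most abundant signalling gene of the second table in every region, with ranks of 90, 106 and 104 among all genes. On chromosome 2 from 15317842 to 15321683, it read 893, 571 and 542 in the first table and 1241, 1157 and 915 FPKM in the second. Neck was highest in both, but no difference was called. The largest, in leg against neck, was -0.58 (SE 0.27) with an adjusted p of 0.141 in limma.

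The TGF-beta receptors were measured in the second table alone. *TGFBR1*, the type I receptor, had 14.8, 20.0 and 18.6 FPKM in neck, wing and leg, and *TGFBR2*, the type II receptor, had 0.308, 2.72 and 0.871. *TGFBR1* exceeded *TGFBR2* by 48.3-fold in neck, 7.36-fold in wing and 21.4-fold in leg. These ratios rest on 1 library per region and on *TGFBR2* values under 1 FPKM in neck and leg, and were not tested. *TGFBR3*, the coreceptor betaglycan, had 5.54, 5.65 and 9.50, with leg highest.

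Among the receptor SMAD genes, *SMAD9* differed most between wing and the other regions. *SMAD1*, on chromosome 4 from 31369602 to 31417304, read 14, 17 and 15 in the first table and 43.9, 62.2 and 49.1 FPKM in the second. *SMAD5*, on chromosome 13 from 15165778 to 15194099, gave 32, 25 and 29 in the first table against 66.4, 67.3 and 77.3 FPKM in the second. *SMAD2*, on chromosome Z from 1515764 to 1557516, gave 24, 28 and 22 in the first table against 37.6, 49.3 and 44.9 FPKM in the second. Wing was highest for *SMAD1* and *SMAD2* in both tables, and *SMAD5* had its lowest value there in the first table alone. None of these 3 genes had a called difference in limma, the smallest adjusted p being 0.0913 for *SMAD1* in wing against neck at a log2 change of 0.38 (SE 0.17).

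*SMAD9*, a BMP-type receptor SMAD that was not tested, stood at 11.2 (neck), 2.34 (wing) and 13.8 (leg) FPKM. It was thus 4.78-fold higher in neck and 5.91-fold higher in leg than in wing. The ratio of *SMAD5* to *SMAD9* was 5.94, 28.7 and 5.59. With *BMPR1A*, *BMPR1B*, *BMPR2*, *BMPER* and *GDF2* it formed the 6 of 45 signalling genes not at 0 throughout the second table whose lowest value was in wing. This was 13.3%, against 12.9% of all 5769 such genes. *SMAD3*, also in the second table alone and not tested, had 8.87, 12.4 and 7.03, so its wing value was 1.77-fold above leg.

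*SMAD6*, an inhibitory SMAD that is itself induced by BMP signals, was lowest in leg. On chromosome 10 from 18699223 to 18727091, it read 28, 33 and 15 from neck to wing to leg in the first table and 50.1, 76.5 and 30.8 FPKM in the second. Leg lay below neck and wing in both tables. *SMAD6* fell by 0.77 (SE 0.17) in leg against neck and by 1.19 (SE 0.17) in leg against wing (limma, adjusted p = 0.000283 and 1.1e-10), while wing against neck, at 0.42, missed the threshold with an adjusted p of 0.0551. The call for leg against wing stood with any 1 library left out. That for leg against neck stood only in the 2 of 6 such fits that dropped a wing library. *SMAD7B*, the other inhibitory SMAD gene listed, had 0 FPKM in each library of its table.

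The ID genes encode inhibitors of basic helix-loop-helix factors and are direct BMP targets in many cell types, and they did not move as one group. *ID2*, on chromosome 3 from 96269601 to 96271725, read 95, 114 and 50 from neck to wing to leg in the first table and 167, 238 and 106 FPKM in the second. *ID3*, on chromosome 23 from 2211791 to 2213069, gave 426, 386 and 213 in the first table against 401, 484 and 255 FPKM in the second. Both were lowest in leg in each table. *ID2* fell by 0.78 (SE 0.19) and *ID3* by 0.83 (SE 0.22) in leg against neck (limma, adjusted p = 0.000859 and 0.00381). In leg against wing they fell by 1.17 and 0.89 (adjusted p = 7.2e-09 and 0.000308). With 1 library left out, the leg against neck calls of both genes stood only in the 2 of 6 fits that dropped a wing library. Those for leg against wing stood in 5 (*ID2*) and 3 (*ID3*) of 6.

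*ID1*, on chromosome 20 from 10207841 to 10209004, gave 61, 37 and 43 in the first table against 98.3, 93.7 and 71.4 FPKM in the second. It was highest in neck in both tables, but its largest change, -0.48 (SE 0.18) in leg against neck, had an adjusted p of 0.0551 in limma. *ID4*, on chromosome 2 from 59930917 to 59933580, was the member of this family with its peak in wing against a low in neck, giving 33, 51 and 35 in the first table against 21.7, 58.0 and 31.5 FPKM in the second. It rose by 0.99 (SE 0.17) in wing against neck and fell by 0.70 in leg against wing (adjusted p = 1.4e-07 and 0.000262), and its change of 0.30 in leg against neck was not called (adjusted p = 0.260). The called changes of *ID4* stood in 5 and 3 of 6 fits with 1 library left out.

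**Figure D3:**
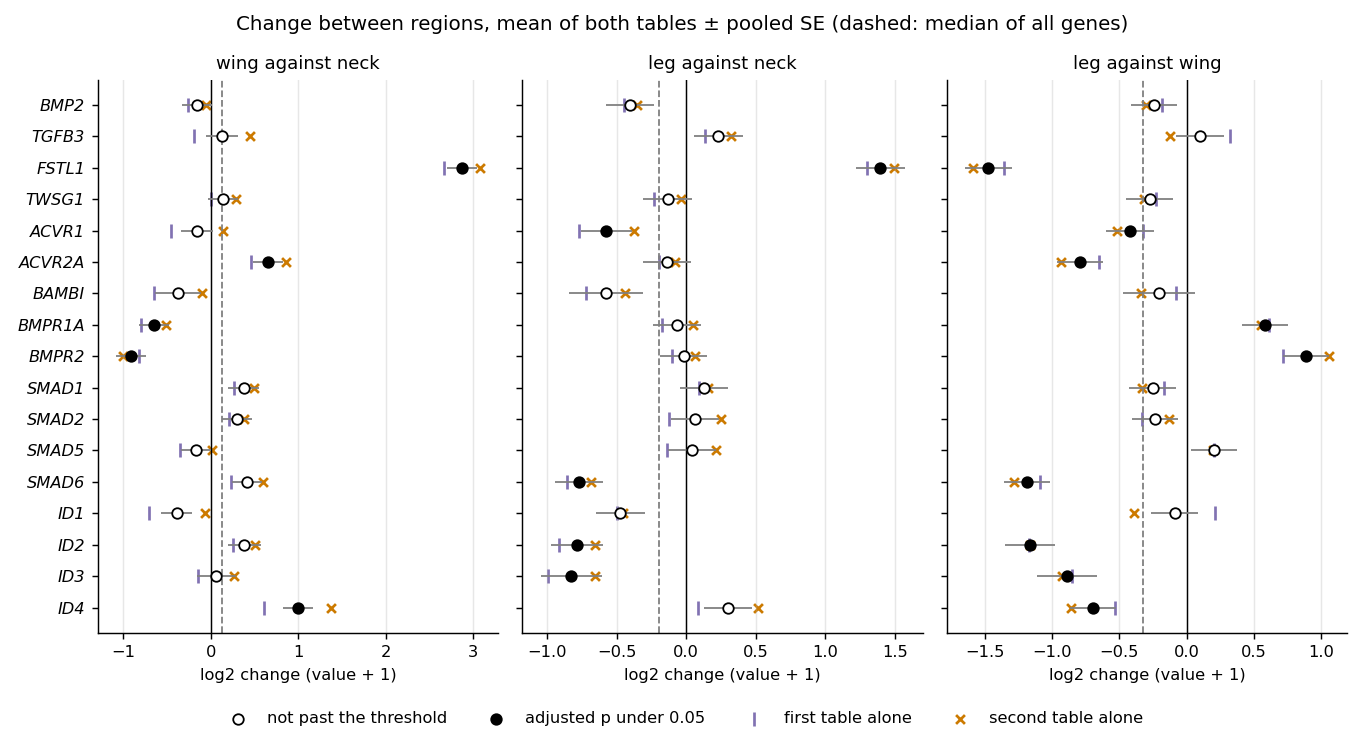
Log2 change of each of the 17 genes between regions on the log2(value + 1) scale, as the mean over both tables with the pooled standard error (filled circles, adjusted p under 0.05), with the change in each table alone. The dashed line is the median of all genes, at 0.14, -0.20 and -0.32. *FSTL1* lay farthest from it in wing against neck at 2.87, and *BMPR2* lay to its right in leg against wing at 0.89.

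In wing against neck, 3 of the 17 genes rose (*ACVR2A*, *FSTL1* and *ID4*) and 2 fell (*BMPR1A* and *BMPR2*). Over all 2191 genes 19.5% rose and 8.26% fell. In 12 of the 17 genes the change had the same sign in both tables. Centring each library on its median gave 6 higher and 7 lower, with *ID2*, *SMAD1* and *SMAD6* added to the first group and *ACVR1*, *BAMBI*, *BMP2*, *ID1* and *SMAD5* to the second, so the balance of directions depends on the scaling. Centring also raised the share of all genes called from 27.7% to 45.7%. With 1 library left out the number called lay between 1 and 5, and it was 1 (*FSTL1*) without neck replicate 2 and 3 without neck replicate 1 or either leg replicate.

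In leg against neck, *FSTL1* alone rose and 4 genes fell (*ACVR1*, *ID2*, *ID3* and *SMAD6*). Over all genes 1.78% rose and 10.4% fell. The sign was shared by the tables in 13 of 17 genes, and centring gave 4 higher and 4 lower, with *ID4*, *SMAD1* and *TGFB3* added to the higher genes, while the share of all genes called went from 12.1% to 17.9%. These calls depended on every neck and leg library. No gene was called without neck replicate 1 or without neck replicate 2 (limma, 5 and 7 of 17 genes at an unadjusted p under 0.05), and *FSTL1* alone without leg replicate 1 or without leg replicate 2.

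In leg against wing, 2 genes rose (*BMPR1A* and *BMPR2*) and 7 fell (*ACVR1*, *ACVR2A*, *FSTL1*, *ID2*, *ID3*, *ID4* and *SMAD6*). Over all genes 5.98% rose and 40.8% fell, so the share of falls among the 17 was close to that of the whole table. The sign was shared by the tables in 15 of 17 genes. Centring gave 4 higher and 5 lower, with *SMAD5* and *TGFB3* added to the higher genes and *ACVR1* and *ID4* lost from the lower, and 52.4% of all genes called against 46.7%. The number called was 2 (*FSTL1* and *SMAD6*) without leg replicate 1 and 3 without leg replicate 2, where *ID2* was called as well. All 19 called changes of the 3 comparisons kept their direction in each table alone and with any 1 library left out. They were called on the mean over the same 2 tables, so this shared direction is not a separate check.

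Over the 47 genes of the second table, 10 were at least 2-fold higher in wing than in neck on the log2(FPKM + 1) scale (*BMP4*, *BMP5*, *FST*, *FSTL1*, *GREM1*, *ID4*, *INHBA*, *LTBP1*, *TGFBI* and *TGFBR2*), which is 21.3% against 11.9% of all 6534 genes. *SMAD9* alone was 2-fold lower on that scale, against 1.35% of all genes. The median gene of the table was at 0.29 in this comparison and the median signalling gene at 0.37. Wing was the highest of the 3 regions in 33 of 45 signalling genes, or 73.3%, and in 73.1% of all genes.

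In leg against neck, *FSTL1*, *INHBA* and *LTBP1* were at least 2-fold higher and *BMP5* and *CHRDL1* 2-fold lower in the second table, against 2.22% and 0.658% of all genes. In leg against wing, *BMPR2* and *SMAD9* were at least 2-fold higher, against 1.67% of all genes, and 11 genes were 2-fold lower (*BMP4*, *BMP5*, *CHRDL1*, *FST*, *FSTL1*, *GDF3*, *GREM1*, *ID2*, *LTBP1*, *SMAD6* and *TGFBI*), against 11.3%. Both comparisons with neck share the same neck library. With 1 library per region none of these counts has a replicate check.

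**Figure D4:**
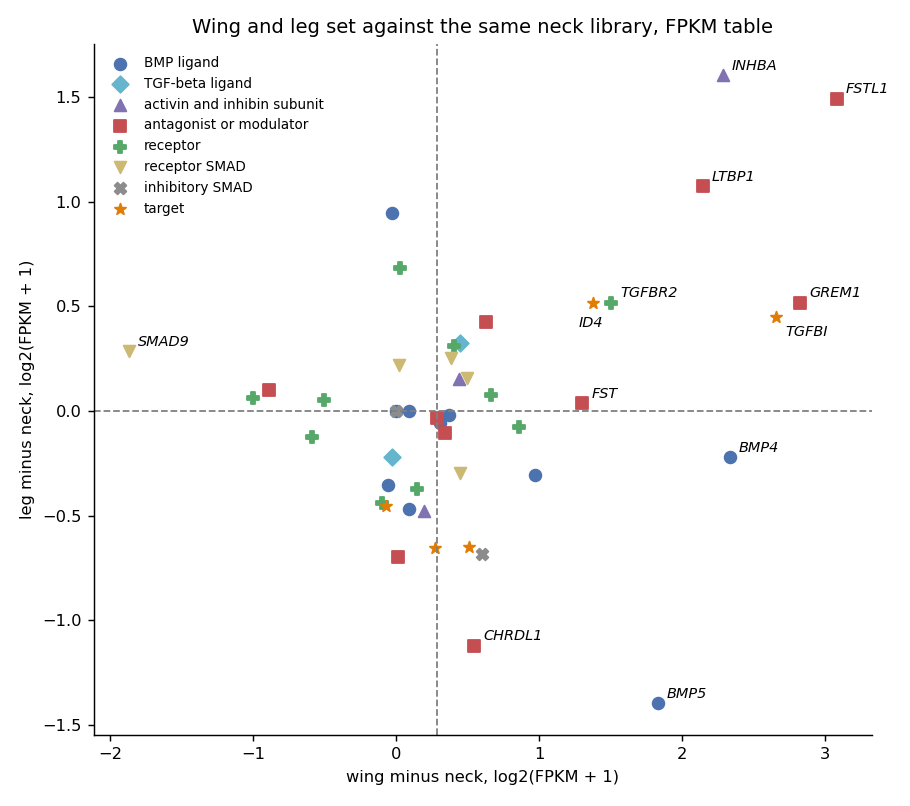
Difference from the shared neck library in wing (horizontal) and in leg (vertical) for the 47 genes of the second table, on the log2(FPKM + 1) scale, with symbols for the role and dashed lines at the median of all genes (0.29 and 0). *FSTL1*, *INHBA* and *LTBP1* lay above neck by at least 1 on both axes, *BMP5* lay above neck in wing and below it in leg, and *SMAD9* lay below neck in wing.

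Summed by role in FPKM, the antagonists and modulators had the largest wing to neck ratio, at 2.85-fold. Their 10 genes gave 152 in neck, 433 in wing and 211 in leg, of which *FSTL1* alone gave 27.7, 242 and 79.7. The ratio of this role thus rests largely on *FSTL1*. *FSTL3*, lowest in wing and listed in the first table alone, is outside these sums. The next ratios were 1.99, for the 3 activin and inhibin subunits, and 1.59, for the 10 BMP and GDF ligands. The 10 receptor genes, led by *BAMBI*, summed to 1582, 1503 and 1235, the 5 receptor SMAD genes to 168, 194 and 192, and the 5 targets to 690, 887 and 465. All 47 genes together gave 2846, 3396 and 2339, so leg was lowest and wing highest. Of the 50 genes, 36 had a value of at least 1 in every library of the tables that list them, and 8 were under 1 in all libraries.

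Beyond these genes, 100 further pathway genes were listed by name, of which 26 had an entry in the first table, 42 in the second and 14 in the test. In wing against neck 4 of the 14 rose and *MSX2* fell, in leg against neck 2 rose and 3 fell, and in leg against wing 6 fell. The shares of all 2191 genes that rose and fell were 19.5% and 8.26%, 1.78% and 10.4%, and 5.98% and 40.8% in the same order, so the falls in leg against wing were near the share of the whole table. *MSX1* and *MSX2*, homeobox genes that respond to BMPs in many tissues, differed in their pattern. *MSX1* read 4, 35 and 1 from neck to wing to leg in the first table and 5.60, 48.6 and 1.91 FPKM in the second, and fell by 4.13 (SE 0.23) in leg against wing (limma, adjusted p = 1.5e-64). *MSX2* gave 272, 159 and 147 in the first table against 392, 317 and 246 FPKM in the second, and fell by 0.54 in wing against neck and by 0.78 in leg against neck (adjusted p = 0.0376 and 0.00354).

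*DLX5*, another homeobox gene with BMP-responsive expression, gave 53, 66 and 23 in the first table against 52.2, 119 and 32.4 FPKM in the second, and fell by 1.66 in leg against wing (limma, adjusted p = 1.1e-19). *MSX1* and *DLX5* were thus highest in wing and lowest in leg in both tables, the order seen for *ID2* and *SMAD6*. The median gene of the test also rose from neck to wing (0.14) and fell from neck to leg (-0.20). Over all entries these medians were -0.08 and -0.31 in the first table and 0.29 and 0 in the second. The tables thus shared neither the rise nor the fall, and the second alone keeps genes at 0 in all regions. *MSX2* and *ID1* were instead highest in neck in both tables, and *ID4* was lowest in neck in both. *SOSTDC1*, which encodes a secreted BMP and WNT modulator, gave 16, 36 and 29 in the first table against 37.3, 103 and 82.9 FPKM in the second, and rose by 1.28 in wing against neck and by 0.98 in leg against neck (adjusted p = 3.9e-12 and 1.2e-06). *DCN*, a matrix proteoglycan that binds TGF-beta, rose by 1.57 and 0.91 in the same comparisons (adjusted p = 4.5e-14 and 0.000153), and it is also a gene of the mesenchyme list. As for the signalling genes, no leg against neck call of these further pathway genes stood when either neck library was left out. How their other calls fared in such fits is not given here.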

How the data were processed

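RNA-seq values of 6 libraries (neck, wing and leg feathers, 2 replicates each) were read from 2 tables, and samples were assigned from their labels, which name the table of each replicate. The authors deposited whole-number values of unstated unit in the first table, handled as scores and not as read counts. Its entries have a mean of at least 9.67, and 525 merge several genes. The second table holds FPKM as deposited by the authors, without loci. The submitters' processing notes name TopHat2 2.1.0, Cufflinks 2.2.1 and galGal4. No fragment count is known, so no interval or detection floor is given. The authors' mean column, 101 rows without values and names damaged by spreadsheet date conversion (8 and 11) were not used. Names were matched through RefSeq (GRCg7b, names only).

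Levels are the deposited values, never averaged over tables. Regions were compared with limma 3.58.1 (lmFit, eBayes with trend) in R 4.3.3 on log2(value + 1), minimum mean 1, replicate number as a block, since it marks the table. Prior degrees of freedom were infinite. The test had been planned for 1 normalized unit and was kept, because the block takes up each gene's shift from table to table. Deviations from region means of same-numbered libraries correlated at 0.968 to 0.990. These deviations hold each gene's shift between the tables, so the correlations cannot show whether the libraries were paired. The tables differ in unit and in the filter on low values, and which differences this reflects was not tested. A 2-fold rule on log2(FPKM + 1) described the second table. Members, lists and tests were chosen with earlier results of these data known. Every member could be named, those in both tables with all values, and other genes only from the lists. Alternatives were no block, quantile normalization, median centring, rescaling to 1 total, a pseudocount of 0.1, other filters, 4 libraries only, other eBayes settings, identical names and replicates left out. Leaving out 1 library at a time was added after seeing the data. The limma script was tested on simulated data. Promoter motifs were not analysed here. Python 3.11.15 with pandas 2.3.3, numpy 2.4.6 and matplotlib 3.10.9 was used.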

Additional observations from a re-analysis of the deposited data

How the results depend on the processing

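The number of signalling genes called depended on the scaling and on the replicate block. For wing against neck it was 5, and 0 with no replicate block, 13 with quantile normalization, 13 with centring on the median, 8 with rescaling to the same total and 3 with only the 4 libraries compared. Over all 2191 genes the share called was 27.7%, and 0.0456%, 47.2%, 45.7%, 32.9% and 9.08% in the same order, so the counts moved with those of the whole table. For leg against neck it was 5, and 0 without the block, 9 with quantile normalization and 8 with centring, against 12.1%, 0%, 20.4% and 17.9% of all genes. For leg against wing it was 9, and 0 without the block, against 46.7% and 0.0913% of all genes. Without the block the difference between the tables enters the spread, and limma then left 1, 0 and 0 of the 17 genes (37, 9 and 32 of 2191) at an unadjusted p under 0.05. With 1 library left out the counts lay between 1 and 5, 0 and 5, and 2 and 9, the lone library of a region being taken to vary like the others, and 3 of the 19 called changes stood in all 6 fits (*FSTL1* in both wing comparisons and *SMAD6* in leg against wing). With a whole replicate left out no test remains. The number of genes detected was 36, and 18 without replicate 2 and 33 without replicate 1. Calls were lost for *ACVR2A* and *BMPR1A* in wing against neck with 4 libraries, for *ACVR1* in leg against neck with rescaling, for *ACVR1* in leg against wing with quantile normalization, centring, rescaling and no trend, and for *ID4* in leg against wing with centring. The cause was not tested. No called change reversed under any alternative run, but all of these drew on the same 6 libraries. A pseudocount of 0.1, no filter, a minimum of 1 in every library, robust eBayes and identical names kept every count within 1.5 times. Low FPKM values rest on an unknown number of fragments.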
